A study of Mus musculus with 34 samples.

Results

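The genes of the mouse mitochondrial genome were followed in hippocampal RNA, and mt-Atp8 was set beside the other subunit genes. The members were all genes whose symbol starts with mt- in the deposited tables. They are 37 of 55385 genes: 13 protein-coding genes, 2 ribosomal RNA genes and 22 transfer RNA genes. All 37 lie on the mitochondrial chromosome, and the tables hold no other gene there. The RNA-seq libraries, made from poly(A) RNA, came from 34 mice of both sexes at 6 months of age. Wild-type C57BL/6J mice (WT) were compared with Dp16, 5xFAD and 5xFAD-Dp16 mice. Dp16 mice carry an extra copy of a segment of chromosome 16 that matches much of human chromosome 21, and serve to model Down syndrome. The amyloid line, 5xFAD, carries amyloid transgenes driven by the neuronal Thy1 promoter, and 5xFAD-Dp16 animals have both changes. Every animal was gavaged daily for a month, with 0.5% methylcellulose vehicle (sham) or with tofacitinib, an inhibitor of JAK1 and JAK3, at 15 mg/kg. Of the animals on sham, 5 were WT, 3 were Dp16, 4 were 5xFAD and 3 were 5xFAD-Dp16. Of those on tofacitinib, 5 were WT, 5 were Dp16, 5 were 5xFAD and 4 were 5xFAD-Dp16. The labels number the samples of a group and say nothing of litters, so p-values measure the spread between these samples.

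The mitochondrial genome is a small circle that is read into long RNAs from both strands. These are cut, mostly at the transfer RNAs, into the messages for subunits of respiratory complexes I, III and IV and of ATP synthase, the enzyme that makes ATP from the proton gradient. The remaining subunits of these complexes are encoded in the nucleus. mt-Atp8 and mt-Atp6 encode membrane subunits of ATP synthase and are read from a single RNA on which their reading frames overlap. mt-Nd4l and mt-Nd4, subunits of complex I, form the other such pair.

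The overlap is shown first because a read that falls in it can belong to either gene. In GRCm38, mt-Atp8 spans chrM:7766-7969 on the plus strand (204 bases) and mt-Atp6 spans chrM:7927-8607. The 43 shared bases, in capitals, end mt-Atp8 and begin mt-Atp6. The sequences are from the transcripts of GENCODE release M21.
mt-Atp8 (whole): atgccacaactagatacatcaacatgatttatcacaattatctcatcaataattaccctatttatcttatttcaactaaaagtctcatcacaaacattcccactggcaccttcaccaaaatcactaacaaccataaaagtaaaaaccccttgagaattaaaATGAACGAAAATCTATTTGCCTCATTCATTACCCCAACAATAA
mt-Atp6 (start): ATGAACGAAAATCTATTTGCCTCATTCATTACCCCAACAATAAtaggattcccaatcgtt
Gm10925 (start): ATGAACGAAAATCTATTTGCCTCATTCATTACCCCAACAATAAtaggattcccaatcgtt

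The last line belongs to a nuclear gene model, shown because its letters are the same as those of mt-Atp6. Gm10925 is an unprocessed pseudogene on chromosome 1. It matched 678 of the 681 bases of mt-Atp6 with no mismatch, and it also holds the 43 shared bases of mt-Atp8. It is 1 of 7 such models within chr1:24611535-24616197 (minus strand), which together match the stretch from base 6390 to base 11042 of the mitochondrial genome. Over nearly their whole length, mt-Co2 (Gm28661), mt-Co3 (Gm28437) and mt-Nd4l (Gm10222) were matched with no mismatch, and mt-Nd3 (Gm28438) at 99.71% identity. Gm28439 matched the first 876 bases of mt-Nd4, and Gm29216 matched the last 483 bases of mt-Co1. The stretch of 161 bases that only mt-Atp8 has was matched by no annotated transcript at 90% identity or more. The models Gm10925 and Gm28661 are 233 bases apart, and so are the ends of their matches on the mitochondrial genome, between which the first 161 bases of mt-Atp8 lie. The single difference between mt-Nd3 and its model is T3C, counted from 1 at the 5′ end of the gene with the base of mt-Nd3 first, and it is in capitals below.
mt-Nd3: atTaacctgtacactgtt
Gm28438: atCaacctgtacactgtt

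The pair mt-Nd4l and mt-Nd4 is printed for comparison with mt-Atp8 and mt-Atp6. mt-Nd4l spans chrM:9877-10173 and mt-Nd4 spans chrM:10167-11544, both on the plus strand, with 7 shared bases in capitals.
mt-Nd4l (end): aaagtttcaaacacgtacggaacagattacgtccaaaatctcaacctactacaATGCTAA
mt-Nd4 (start): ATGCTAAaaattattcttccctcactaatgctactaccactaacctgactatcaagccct

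The values bear on this copy. The sources used here do not say how the counting treated reads that fit several places or which strand setting it used. Values of genes inside the copied stretch, and of overlapping genes, are therefore uncertain. On the scale of RPKM (reads for each kilobase of a gene, per M reads of the library), medians over the 34 libraries of the 6 subunit genes inside the stretch ran from 38.9 for mt-Nd4l to 176.9 for mt-Atp6. Those of the 4 genes of the same strand outside it (mt-Nd1, mt-Nd2, mt-Nd5 and mt-Cytb) ran from 3447 to 7946. mt-Atp8 counts as inside by its position, although only 43 of its 204 bases were matched. The chromosome 1 models were themselves counted. Gm10925 had a median of 318 RPKM against 177 for mt-Atp6, and it held more counts than mt-Atp6 in 33 of 34 libraries. The mitochondrial gene held a median of 37.9% of the counts of that pair (25.9 to 51.2%), 44.1% for mt-Co2, 36.4% for mt-Co3, 45.9% for mt-Nd3 and 38.1% for mt-Nd4l. For mt-Co1 and mt-Nd4, which are only partly inside the stretch, it held 99.2% and 96.6%. Whether the copy sets these low levels was not tested.

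**Figure D1:**
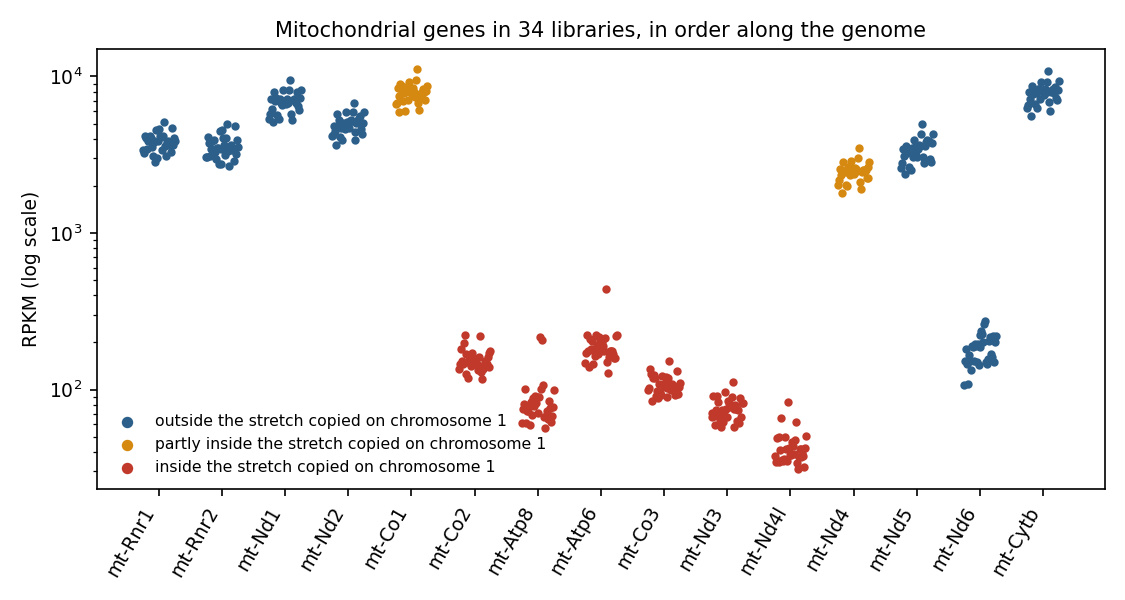
RPKM of the 13 subunit genes and 2 ribosomal RNA genes on a log axis, 1 point per library (34 per gene), in order along the mitochondrial genome. Colours mark genes by position as outside, partly inside or inside the stretch with a chromosome 1 copy. Of mt-Atp8, placed inside, 43 of 204 bases were matched. The 6 genes inside the stretch and mt-Nd6, the subunit gene of the other strand, lie far below the rest.

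In sham WT animals the subunit genes fell into 6 that were high and 7 that were low. mt-Co1, the catalytic core of complex IV, was highest at 7063 ± 936 RPKM (SD, n = 5). It was followed by mt-Cytb of complex III (6717 ± 911), mt-Nd1 (5941 ± 811), mt-Nd2 (4276 ± 436), mt-Nd5 (2873 ± 411) and mt-Nd4 (2187 ± 286), all of complex I except mt-Cytb. The ranges of mt-Co1 and mt-Cytb overlapped, as did those of mt-Cytb and mt-Nd1 and those of mt-Nd5 and mt-Nd4. Within single libraries of all groups, mt-Co1 was above mt-Cytb in 19 of 34. There mt-Cytb was above mt-Nd1, and mt-Nd5 above mt-Nd4, in all 34. A 12.7-fold step in mean RPKM separated mt-Nd4 from mt-Atp6 (172 ± 32.4). Below it came mt-Co2 (152 ± 17.3), mt-Nd6 (139 ± 31.3), mt-Co3 (109 ± 20.8), mt-Atp8 (75.9 ± 16.3), mt-Nd3 (71.2 ± 11.96) and mt-Nd4l (38.0 ± 6.3). Only mt-Nd4l, at the end of that order, did not overlap the gene before it. Within libraries, mt-Nd6 was above mt-Co3 in all 34, but mt-Co2 was above mt-Nd6 in only 7. mt-Atp6 was above mt-Co2 in 31, mt-Co3 above mt-Atp8 in 31 and mt-Atp8 above mt-Nd3 in 19. mt-Nd6 lies outside the copied stretch but on the other strand (chrM:13552-14070).

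The mitochondrial genes took between 3.96 and 7.32% of all counts of a library, with a median of 5.28%. mt-Co1 alone made up a median of 23.4% of these counts, mt-Cytb 17.2%, mt-Nd1 12.5%, mt-Nd5 11.7% and the larger ribosomal RNA, mt-Rnr2, 10.7%. mt-Atp8 made up 0.0302%. In sham animals the share was 4.63 ± 0.60% in WT (n = 5), 5.59 ± 0.58% in Dp16 (n = 3), 4.89 ± 0.63% in 5xFAD (n = 4) and 5.36 ± 0.13% in 5xFAD-Dp16 (n = 3). With tofacitinib it was 5.25 ± 0.42% in WT (n = 5), 5.32 ± 1.24% in Dp16 (n = 5), 5.48 ± 0.42% in 5xFAD (n = 5) and 5.35 ± 0.55% in 5xFAD-Dp16 (n = 4). Each group's range overlapped that of sham WT (3.96 to 5.48%). The highest library, 1 of Dp16 with tofacitinib at 7.32%, stood in the same group as a library at 4.07%. In bulk RNA a lower level cannot be told apart from fewer cells that hold the RNA.

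Library totals were 14.9 to 21.1 M counts. Defining markers of hippocampal neurons were detected in all 34 libraries, with a summed level of 932 to 1401 CPM (counts per M) in 31 of them. In 3 libraries it was 423 to 602 CPM: WT tofacitinib library 3, 5xFAD tofacitinib library 2 and 5xFAD-Dp16 sham library 4. The summed level of 8 striatum markers was 1248 CPM in WT tofacitinib library 3, 2042 CPM in 5xFAD tofacitinib library 2 and 479 CPM in 5xFAD-Dp16 tofacitinib library 1. That of 9 thalamus and habenula markers was 1363 CPM in 5xFAD tofacitinib library 2, 820 CPM in 5xFAD-Dp16 sham library 4 and 440 CPM in 5xFAD-Dp16 tofacitinib library 1. Every sham WT library and every Dp16 library, sham or tofacitinib, was at 221 CPM or less for both lists. Of the 37 members 23 passed the filter on low counts: all 13 subunit genes, both ribosomal RNA genes and 8 transfer RNA genes.

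mt-Atp8 was the only subunit gene called between Dp16 and WT sham animals in the main edgeR fit across all genes. Which subunit genes were called depended on the fit, as given below. Earlier results of these data on mt-Atp8 were known, so its fold changes are no independent evidence. In the 5 sham WT animals, from library 1 to 5, it was at 61.3, 75.5, 81.3, 100.3 and 60.9 RPKM. In the 3 sham Dp16 animals it was at 217, 101 and 209 RPKM, from 830, 351 and 727 counts. Libraries 1 and 3 lay far above every WT value, while library 2 exceeded the highest of them by less than 1 RPKM, so the groups do not overlap but touch. The log2 fold change was 1.25 (SE 0.21, edgeR quasi-likelihood test, Benjamini-Hochberg adjusted p = 0.00114). Higher calls were made for 0.245% of the 17518 genes tested, and 1 of 23 members was called. With only the WT and Dp16 sham libraries in the fit, the fold change was 1.29 and was not called (edgeR adjusted p = 0.0702). That fit called mt-Nd2 and mt-Nd5 instead. In the fit without Dp16 library 1, mt-Atp8 was not called either (edgeR adjusted p = 0.0532). Without libraries 1 and 3 the log2 fold change was 0.49. That value rests on library 2 alone, with the spread taken from the other groups.

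The other groups did not share these levels. Sham 5xFAD animals had 68.8, 88.0, 85.3 and 78.5 RPKM of mt-Atp8, and sham 5xFAD-Dp16 animals had 65.2, 84.4 and 76.0. These animals of combined genotype carry the same segment as Dp16, and none of them reached the lowest sham Dp16 value; the difference between these groups was not tested. Among animals given tofacitinib, WT had 73.0, 72.7, 80.3, 58.98 and 83.6 RPKM and 5xFAD had 91.2, 82.5, 89.3, 70.8 and 90.1. Dp16 animals given tofacitinib had 107, 66.3, 56.6, 68.0 and 72.9 RPKM. Library 1 of that group lies above the lowest sham Dp16 value, so these groups overlap, and the other 4 libraries lie below all sham Dp16 values. The 4 5xFAD-Dp16 animals had 61.8, 67.5, 77.1 and 99.46. Over the 31 libraries outside sham Dp16, mt-Atp8 ranged from 56.6 to 107 RPKM with a median of 76.0, and its counts from 204 to 371.

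**Figure D2:**
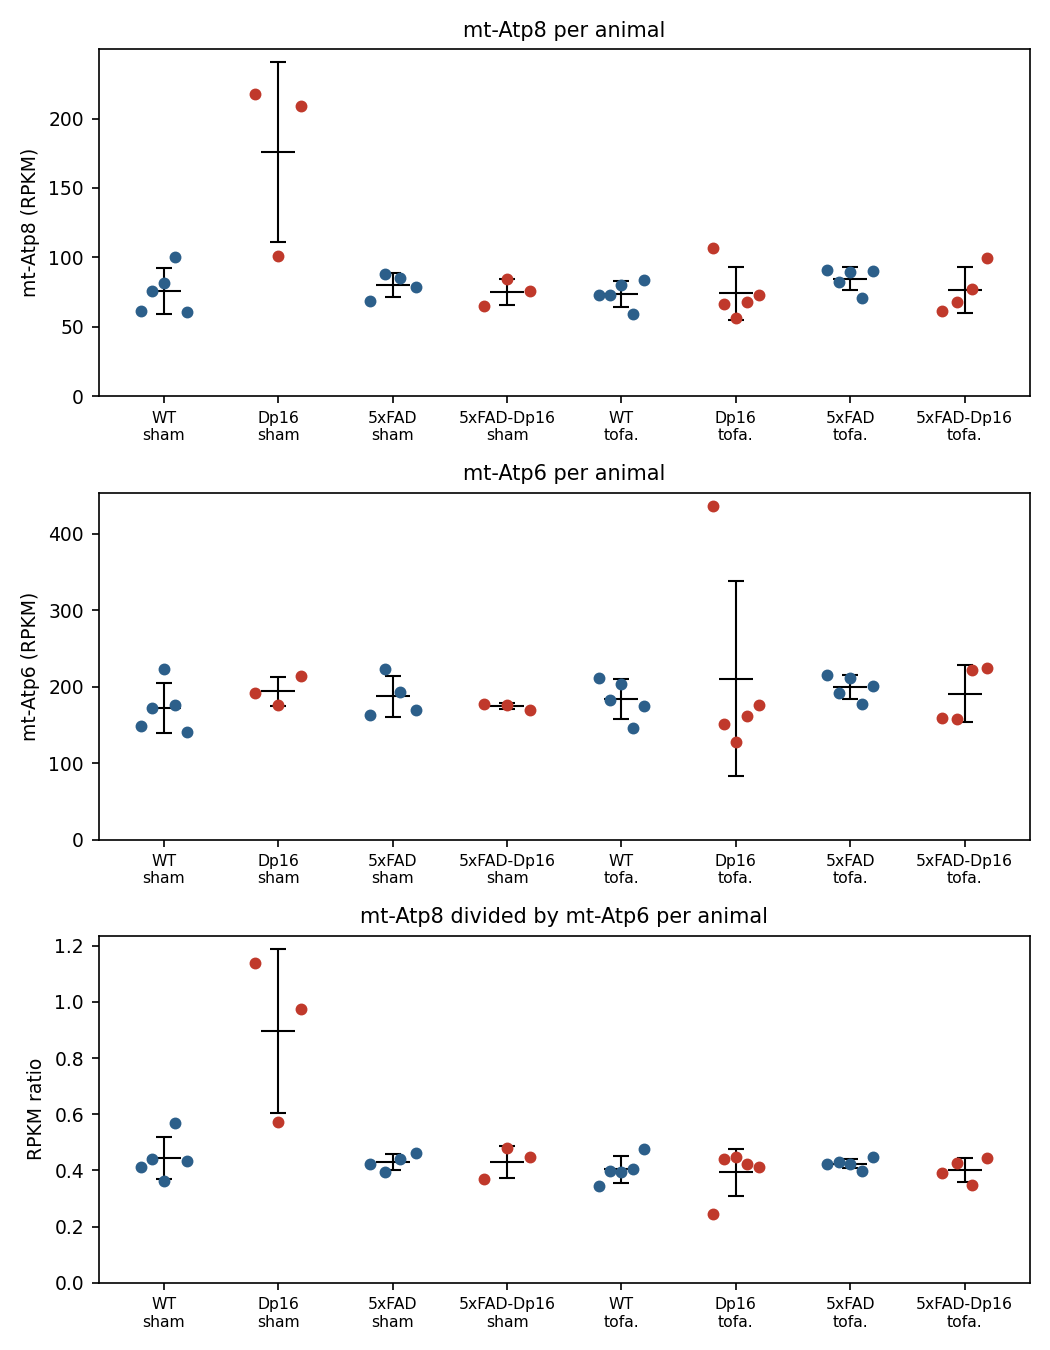
mt-Atp8 (top, RPKM), mt-Atp6 (middle, RPKM) and their RPKM ratio (bottom) in each of 34 animals. Points are animals in order of library number, red for genotypes with the chromosome 16 segment; the bar is the mean and SD. Sham Dp16 libraries 1 and 3 stand apart for mt-Atp8 (217 and 209) and for the ratio, and library 1 of Dp16 with tofacitinib stands apart for mt-Atp6 (437).

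Between tofacitinib and sham in Dp16 animals, mt-Atp8 was the only gene of 17518 that was called. Its log2 fold change was -1.25 (SE 0.21, edgeR adjusted p = 0.0199), and lower calls made up 0.00571% of all genes. This comparison uses the same 3 sham Dp16 libraries as the one with WT, so the values are not independent. The call was lost when either library 1 or library 3 of sham Dp16 was left out, and also without any of libraries 2 to 5 of Dp16 with tofacitinib. The fold change ranged from -1.51 to -1.01 over these 8 fits, and without libraries 1 and 3 together it was -0.49, again with library 2 as the only sham Dp16 sample. The call also ended with only the compared groups in the fit (-1.25, edgeR adjusted p = 0.999). The response of Dp16 minus that of WT was -1.22 (SE 0.28, unadjusted p = 0.000137), which missed the threshold over all genes (edgeR adjusted p = 0.9997). Read over all genotypes, mt-Atp8 was not called for the segment (log2 0.27, SE 0.10, edgeR adjusted p = 0.238). It was called neither for the amyloid transgenes (-0.24, SE 0.10, edgeR adjusted p = 0.392) nor for tofacitinib (-0.30, SE 0.10, edgeR adjusted p = 0.618). Each of these contrasts includes the sham Dp16 libraries, so their values are not independent of those above.

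mt-Atp6 did not follow mt-Atp8 in these animals. It was at 191, 176 and 214 RPKM in sham Dp16 and at 148, 172, 223, 177 and 140 in sham WT. The groups overlap, and the log2 fold change was 0.19 (SE 0.27, edgeR adjusted p = 0.952). In Dp16 animals given tofacitinib it was at 437, 151, 127, 161 and 177 RPKM, with library 1 far above the other 4.

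Since both genes sit on a single RNA, their ratio was taken within each library. The ratio also carries the split of counts between mt-Atp6 and Gm10925, of which mt-Atp6 held 25.9 to 51.2%. mt-Atp8 divided by mt-Atp6 was 0.364 to 0.568 in sham WT with a median of 0.434. In sham Dp16 libraries 1, 2 and 3 it was 1.14, 0.573 and 0.976. In the 31 libraries of the other groups it ran from 0.245 to 0.568, and the value of sham Dp16 library 2 lies just above the highest of these. The lowest, 0.245, was that of Dp16 tofacitinib library 1, with mt-Atp6 at 437 RPKM and mt-Atp8 at 107 RPKM. The log2 difference between sham Dp16 and sham WT was 0.97. The exact two-sided permutation test of 3 against 5 animals gave p = 0.0179, the smallest this design allows, and an adjusted p of 0.0893 over the 10 pairs of groups compared. Tofacitinib against sham in Dp16 gave a log2 difference of -1.16 with the same exact p and adjusted p. Earlier results of these data on mt-Atp8 were known, and the adjustment over pairs does not cover that choice of gene. Both tests use the same sham Dp16 libraries as the fold changes above, so they are no independent evidence. In the other 8 pairs the groups overlapped and the adjusted exact p was 0.952. The ratio of mt-Nd4l to mt-Nd4, from 0.0141 to 0.0291, overlapped in all 10 pairs (lowest adjusted exact p = 0.857).

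Markers of the choroid plexus and the ependyma, tissue of the ventricle wall next to the hippocampus, had higher summed levels in sham Dp16 than in most sham WT animals. All 10 ependymal and all 14 choroid plexus markers had a log2 fold change above 0, with medians of 0.923 and 1.239, and 0 of either list were called. The summed level of 10 ependymal markers was 52.4 to 71.8 CPM in sham Dp16, above all sham WT animals (11.2 to 45.9 CPM), and 44.0 to 61.8 CPM in Dp16 with tofacitinib. None of the 10 markers was at 0 in sham Dp16. The summed level of 14 choroid plexus markers was 3902, 3393 and 1279 CPM in sham Dp16 libraries 1 to 3, with none at 0, against 201 to 4891 CPM in sham WT and 248 to 7147 CPM in Dp16 with tofacitinib. Of the 5 blood markers none was called, and their summed level was 60.4 to 70.3 CPM in sham Dp16 and 45.4 to 130.8 CPM in sham WT. In 5xFAD against WT in sham, all 14 choroid plexus and all 10 ependymal markers lay above 0 (medians 1.396 and 0.556), with 0 called. Sham 5xFAD libraries 1 to 4 were at 6536, 157, 172 and 5964 CPM for choroid plexus markers. In these 4 libraries mt-Atp8 was at 68.8, 88.0, 85.3 and 78.5 RPKM. The part of these tissues in the result was not tested.

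The other subunit genes of Dp16 against WT in sham lay mostly above 0 without passing the threshold. Of the 13 genes 11 had a log2 fold change above 0, with a median of 0.325 beside 0.005 for all genes tested. Messages cut from the same long RNA are not independent. mt-Nd6, the complex I subunit of the other strand, was at 227, 202 and 263 RPKM in sham Dp16. It was at 108, 152, 182, 145 and 109 RPKM in sham WT. The groups do not overlap, and its log2 fold change was 0.77 (SE 0.19), with an adjusted p of 0.102. DESeq2 called mt-Nd6 (log2 0.77, adjusted p = 0.0265). In the other groups mt-Nd6 ranged from 133 RPKM in WT to 275 RPKM in Dp16, both with tofacitinib.

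The next largest changes among the subunit genes were those of mt-Nd5 (log2 0.45, SE 0.16, adjusted p = 0.451), mt-Nd2 (0.38, SE 0.15), mt-Cytb (0.36, SE 0.15), mt-Nd1 (0.33, SE 0.15) and mt-Nd4 (0.33, SE 0.15). mt-Co1 was at 0.26 (SE 0.15), mt-Nd3 at 0.21 (SE 0.16) and mt-Nd4l at 0.20 (SE 0.25). The cytochrome oxidase subunits mt-Co2 and mt-Co3 were at -0.04 (SE 0.17) and -0.07 (SE 0.15). Of the ribosomal RNAs, mt-Rnr1 was at 0.10 (SE 0.15) and mt-Rnr2 at 0.10 (SE 0.17). In all, 10 of 23 members had an unadjusted p below 0.05, beside 7.29% of all genes. With only the WT and Dp16 sham libraries in the fit, mt-Nd2 and mt-Nd5 were called. The share of all genes called was not taken for that fit.

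**Figure D3:**
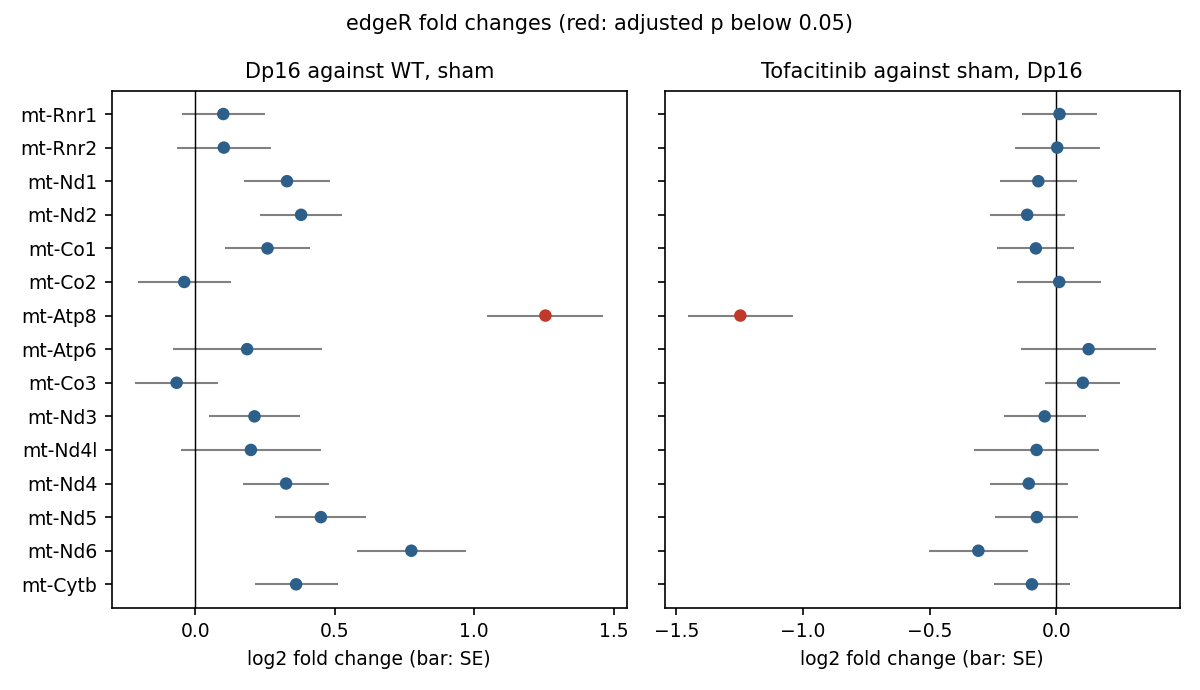
Log2 fold change with its SE (bars) of the 13 subunit and 2 ribosomal RNA genes for Dp16 against WT in sham (left) and for tofacitinib against sham in Dp16 (right), from edgeR, in order along the genome. mt-Atp8 is the only gene past an adjusted p of 0.05 in either panel, at 1.25 and -1.25; both panels share the sham Dp16 libraries.

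With tofacitinib, no member was called in any genotype against WT. Dp16 against WT had a median log2 fold change of 0.04 over the 13 subunit genes (range -0.22 to 0.21), and none of the 23 members was called by edgeR, none at an unadjusted p below 0.05 and none by DESeq2, beside 0.268% of all genes called. 5xFAD against WT had a median of 0.078 with tofacitinib and of 0.129 in sham, and the counts of members were again 0 by all 3 measures, beside 0.32% and 0.445% of all genes called. In 5xFAD-Dp16 against WT the median was 0.01 with tofacitinib, again with 0 members by all 3 measures and 0.537% of all genes called.

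Sham 5xFAD-Dp16 against sham WT had a median of 0.137 over the 13 subunit genes. No member was called by edgeR or DESeq2, beside 0.959% of all genes called by edgeR, and 5 of 23 members had an unadjusted p below 0.05 (mt-Nd2, mt-Nd5, mt-Nd6, mt-Tm and mt-Tt), beside 14.3% of all genes. mt-Nd5 was at 0.44 (SE 0.16, edgeR adjusted p = 0.212) and mt-Nd6 at 0.42 (SE 0.20, edgeR adjusted p = 0.329).

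Tofacitinib against sham called no member in WT, 5xFAD or 5xFAD-Dp16 animals, where 0% of all genes was called by edgeR, and none of the members reached an unadjusted p below 0.05 or was called by DESeq2. The medians over the 13 subunit genes were 0.187 in WT, 0.135 in 5xFAD and 0.035 in 5xFAD-Dp16, and -0.078 in Dp16. All 13 lay above 0 in 5xFAD, between 0.063 and 0.273. In the same comparisons 8 of 8 striatum markers were above 0 in 5xFAD (median 1.695) and in WT (median 1.165), with none called. In each group a single library was high, 5xFAD tofacitinib library 2 (2042 CPM summed) and WT tofacitinib library 3 (1248 CPM). The rest were at 168 to 216 CPM in 5xFAD and 188 to 231 CPM in WT. Sham libraries were at 198 to 232 CPM in 5xFAD and 202 to 221 CPM in WT. The part of these markers in the subunit medians was not tested. For tofacitinib over all animals no member and 0% of all genes was called, and for the amyloid transgenes no member and 1.59% of all genes. In both mt-Atp8 was the only 1 of 23 members with an unadjusted p below 0.05, beside 7.73% of all genes for tofacitinib and 10.5% for the transgenes. For the segment over all animals no member and 1.38% of all genes was called. There 7 of 23 members had an unadjusted p below 0.05, beside 12.8% of all genes. For the response of Dp16 minus that of WT no member and 0% of all genes was called, and 2 of 23 members, mt-Atp8 and mt-Nd6, had an unadjusted p below 0.05, beside 2.26% of all genes. DESeq2 called no member in these 4 comparisons.

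**Figure D4:**
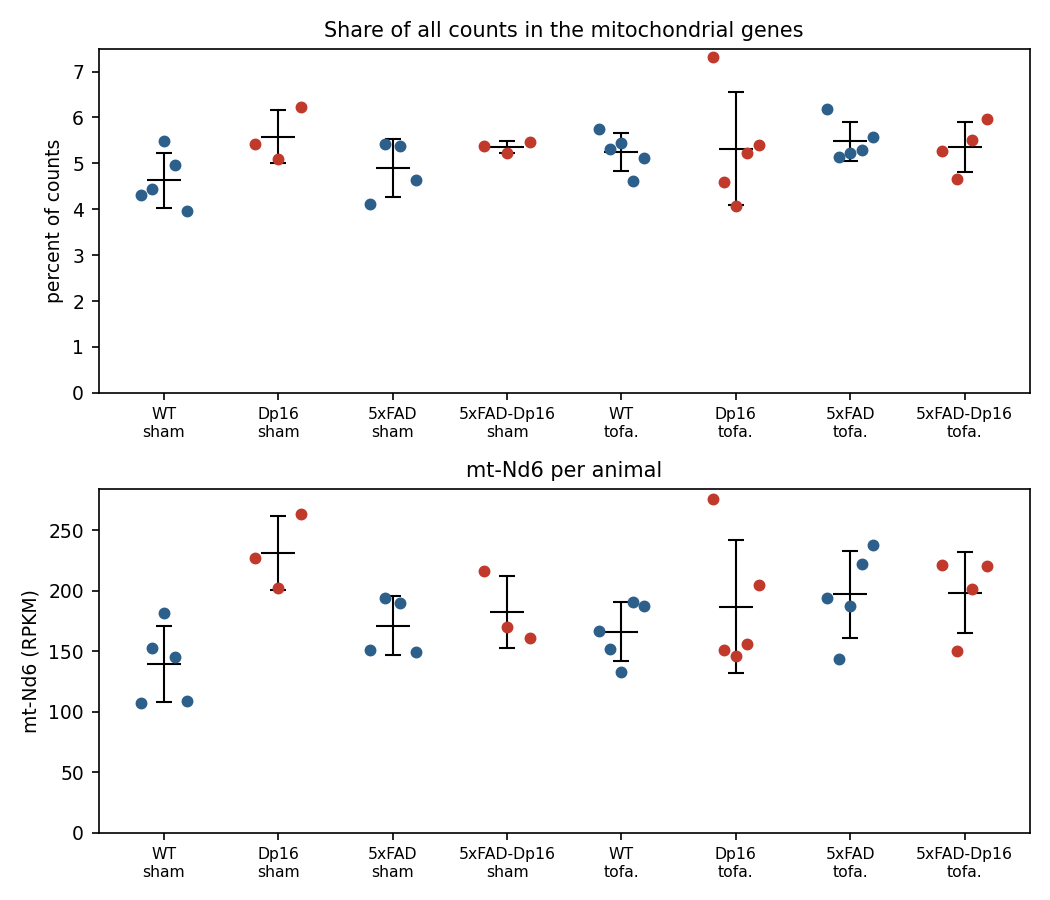
Share of all counts of a library in the 37 mitochondrial genes (top, percent) and RPKM of mt-Nd6 (bottom) in each animal, in order of library number, red for genotypes with the chromosome 16 segment; the bar is the mean and SD. The shares overlap between all groups and sham WT, while the 3 sham Dp16 animals lie above the 5 sham WT animals for mt-Nd6.

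Single libraries in which 1 gene left the others were not limited to mt-Atp8. Each gene's RPKM was divided by the mean level (on the log2 scale) of mt-Nd1, mt-Nd2, mt-Nd5 and mt-Cytb in the same library, without the gene itself, and then by its own median over libraries. mt-Atp8 deviated 2.64-fold and 2.2-fold upward in sham Dp16 libraries 1 and 3. The other deviations of at least 1.5-fold inside the copied stretch were 1.68-fold for mt-Atp6 in Dp16 tofacitinib library 1, and 1.56-fold and 1.74-fold for mt-Nd4l in WT tofacitinib library 3 and 5xFAD tofacitinib library 1. These are 5 of 204 values inside the stretch. Of 238 values of the genes outside it 1 was past 1.5-fold, that of mt-Rnr2 in 5xFAD-Dp16 tofacitinib library 1 (1.51-fold). These 238 include the values of the reference genes themselves, so they are no independent comparison for the genes inside. Of 238 values of the chromosome 1 models 6 were past it, each of a different model.

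The spread of these deviations differed between genes. Its SD on the log2 scale was 0.351 for mt-Atp8 and 0.173 to 0.218 for the other 5 genes inside the stretch. It was 0.042 to 0.071 for mt-Nd1, mt-Nd2, mt-Nd5 and mt-Cytb, which are themselves the reference, so a small spread is partly built in. The SD was 0.05 for mt-Nd4 and 0.081 for mt-Co1, both partly inside the stretch. For mt-Nd6 it was 0.237, for mt-Rnr1 0.198 and for mt-Rnr2 0.225. Median counts were 91445 for mt-Nd2, 67837 for mt-Rnr1, 103313 for mt-Rnr2 and 210 for mt-Nd4l. The part of counts in these spreads was not tested. When counts of a gene and its chromosome 1 model were summed, the SD of mt-Nd4l was 0.128 in place of 0.218, that of mt-Atp6 was 0.156 in place of 0.184, and neither had a value past 1.5-fold. For mt-Nd3 the SD was 0.206 in place of 0.185. The sums of mt-Co2 and of mt-Nd3 each had 1 value past 1.5-fold (log2 0.589 and -0.6), where the genes alone had 0. With these sums in the fit, mt-Atp6 was at 0.23 in Dp16 against WT in sham (edgeR adjusted p = 0.874). mt-Atp8 has no such model to add. Its counts were the same in this fit, so its fold change of 1.25 there tests nothing about the copy.

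**Figure D5:**
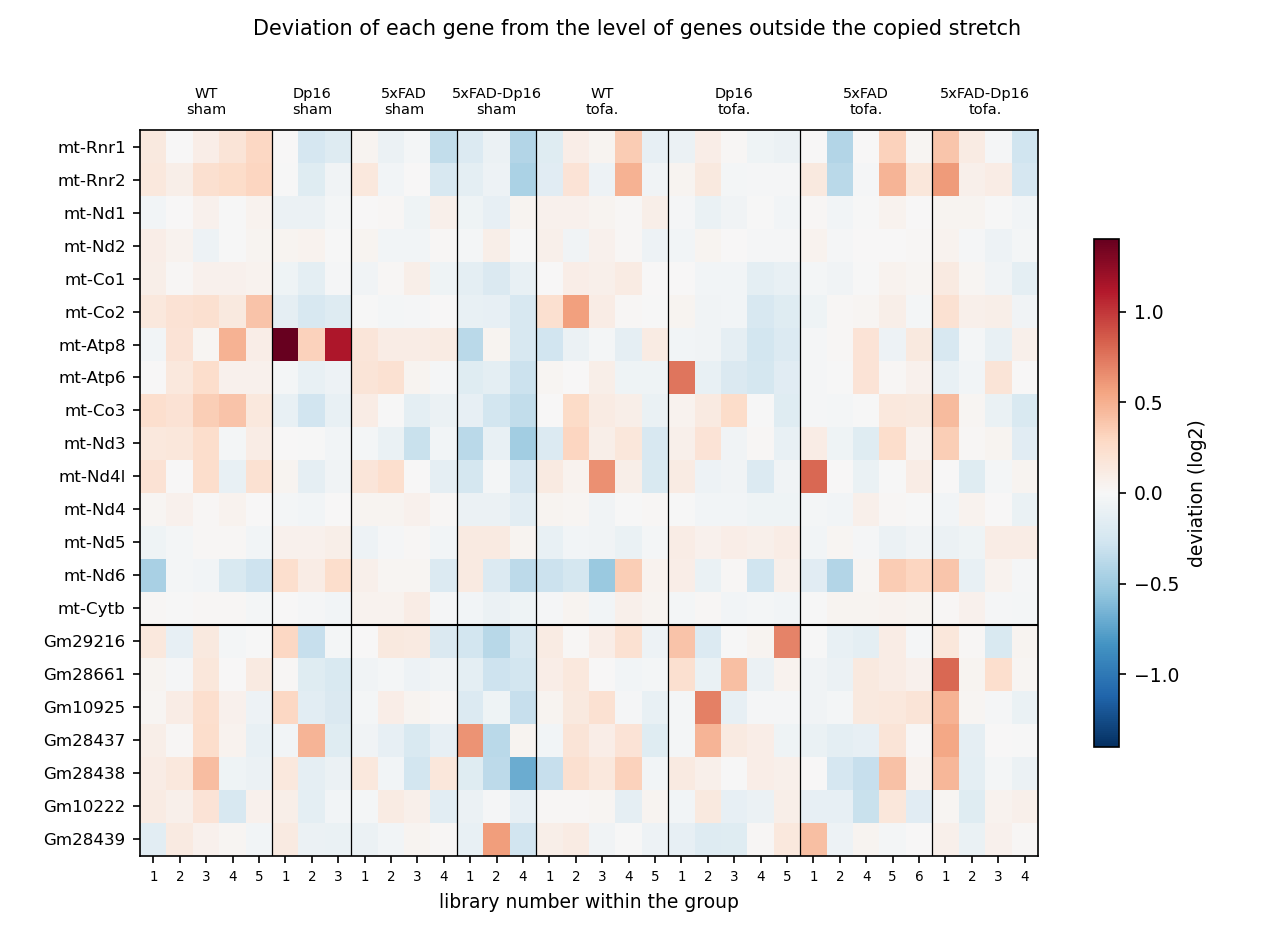
Deviation (log2, colour scale) of 15 mitochondrial genes and, under the line, 7 chromosome 1 models in each of 34 libraries from the mean level of mt-Nd1, mt-Nd2, mt-Nd5 and mt-Cytb, centred on each gene's median. Columns are libraries by group; the darkest cells are mt-Atp8 in sham Dp16 libraries 1 and 3 (1.399 and 1.135).

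Mature transfer RNAs carry no poly(A) tail. Together their genes had 190 to 394 counts a library. 6 of the 22 had no count in any library and 15 stayed under 20 counts in every library. mt-Tw had the most, with a mean of 110 counts (59 to 155), followed by mt-Tp (47.2, 13 to 83), mt-Tm (35.1, 13 to 69) and mt-Tt (33.6, 13 to 74). The 8 that passed the filter had log2 fold changes of -0.40 to 1.503 in Dp16 against WT in sham, and none was called in any comparison. mt-Tw overlaps mt-Nd2 by 2 bases, so some of its reads may be those of mt-Nd2.

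Among nuclear genes of the same complexes, the called ones were 2 ATP synthase genes of the triplicated segment, Atp5j (coupling factor 6, chr16:84827866-84835625) and Atp5o (the subunit that confers oligomycin sensitivity, chr16:91925214-91931687). Of 18 listed ATP synthase subunits, Atp5j was called in Dp16 against WT in sham (log2 0.61, SE 0.13, adjusted p = 0.0269). This call was lost in 7 of 8 fits that left out a library, all but the one without WT library 3, with an adjusted p of up to 0.432 without Dp16 library 3. It was at 156, 166 and 209 RPKM from the lowest to the highest sham Dp16 animal, above the 105 to 140 RPKM of sham WT. Atp5o was at 277 to 333 RPKM in sham Dp16 and at 176 to 270 in sham WT, with a log2 fold change of 0.51 (SE 0.12, adjusted p = 0.0708). Over all animals both were higher with the segment, Atp5j by 0.55 (SE 0.07, adjusted p = 8.75e-07) and Atp5o by 0.53 (SE 0.06, adjusted p = 4.49e-07). In 5xFAD-Dp16 against WT with tofacitinib both were called too, at 0.51 and 0.48. On leaving out each of 9 libraries, the call of Atp5j was lost 7 times and that of Atp5o 6 times, with adjusted p of up to 0.274 and 0.231 without 5xFAD-Dp16 library 1. The calls over all animals were kept in all 34 such fits.

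No other listed nuclear gene of the respiratory chain was called in any comparison. In Dp16 against WT in sham, 0 of 37 complex I subunits passed (median -0.007), 0 of 4 of complex II (-0.016), 0 of 9 of complex III (0.002) and 0 of 12 of complex IV (-0.045). Of 36 genes for mitochondrial DNA upkeep, transcription and RNA processing, 0 passed, with a median of -0.006. These medians stand beside 0.005 for all genes and 0.325 for the 13 mitochondrial subunits.

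Likeness to mt-Atp8 across the 34 libraries was ranked over 9616 genes with a mean of at least 10 CPM. Genes named only by a model or clone number, such as the chromosome 1 models, were left out here and below. The level of mt-Atp8 ran most closely with mt-Atp6 (Spearman rho 0.80 of log2 CPM). The next 9 were Zfp106 (0.78), mt-Nd4 (0.78), mt-Cytb (0.75), mt-Nd2 (0.73), Map2 (0.72), mt-Co1 (0.70), Lrrc58 (0.70), Purb (0.68) and Slc1a2 (0.65). The lowest were Vipas39 (-0.67), Rgs16 (-0.64), Gnb5 (-0.63), Atp6v1h (-0.63) and Tecr (-0.62). With the mean of the other 12 subunit genes, the highest were Gpm6b (0.75), mt-Rnr1 (0.72), Arhgap5 (0.69), Appl2 (0.68), Map2 (0.66), Slc1a2 (0.66), Aldoc (0.66), Rasa2 (0.65), mt-Rnr2 (0.64) and Lrrc58 (0.64). The lowest were Slc22a17 (-0.66), Tubb4b (-0.64), Smpd1 (-0.64), Mtmr7 (-0.63) and Zfyve27 (-0.63). These are descriptions over libraries of all 8 groups, which share depth and scaling.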

How the data were processed

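Poly(A) RNA of 34 hippocampi was measured; per the labels' protocols the libraries were strand-specific, with paired reads of 150 bp. The authors deposited raw read counts per gene and RPKM values. The RPKM of the subunit and ribosomal RNA genes equalled the counts divided by the library total and the annotated length. The submitters' processing notes name HISAT2 2.1.0, SAMtools 1.5, HTSeq 0.6.1 and GRCm38, without their roles. Groups came from the labels. Counts were scaled with TMM (factors 0.945 to 1.08), filtered with filterByExpr by group and tested with the edgeR 4.0.16 quasi-likelihood test (robust, R 4.3.3) in 1 fit of 34 libraries with 8 group means and sex (25 residual degrees of freedom), in 14 contrasts, two-sided, adjusted over 17518 genes at a threshold of 0.05. Differences of ratios were tested by exact permutation. Copies were found with BLAST+ 2.17.0 against 141767 GENCODE M21 transcripts (GRCm38), keeping matches of at least 90% identity. Alternatives included DESeq2 1.42.0. The code was tested on simulated data.

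Named were all subunit and ribosomal RNA genes, the 4 transfer RNA genes of highest mean count, called genes of 12 lists (175 entries, all matched) and the 10 most and 5 least alike in pattern. The members and lists were chosen with earlier results of these data known. No 2 libraries were identical: at least 38.0% of genes differed in each of 561 pairs.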

Additional observations from a re-analysis of the deposited data

Results flagged for a closer look

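In groups of 4 or 5 animals, the highest or lowest animal was compared with the gap to its nearest neighbour (Dixon's test at the 95% level, which flags about 1 in 20 groups by chance). Of 150 groups tested over 25 measures, 9 had such a value, and none of these was tested further.

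Library 1 of Dp16 with tofacitinib was flagged for 3 genes inside the copied stretch. Without being flagged, this library was also the highest of its group for mt-Atp8 (107 RPKM, nearest 72.9), which lies among them. The same held for mt-Co1 (11121 RPKM, nearest 7854). It was at 219 RPKM of mt-Co2 (nearest 144), 437 of mt-Atp6 (nearest 177) and 152 of mt-Co3 (nearest 108). Its ratio of mt-Atp8 to mt-Atp6, 0.245, was the lowest of its group (nearest 0.413). This library also had the highest mitochondrial share of all 34, at 7.32%.

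mt-Nd4l was at 83.8 RPKM in 5xFAD tofacitinib library 1 (nearest 46.2) and at 49.1 RPKM in WT sham library 3 (nearest 37.6). The ratio of mt-Nd4l to mt-Nd4 was 0.0291 in the former library (nearest 0.0177), and 0.0265 in WT tofacitinib library 3 (nearest 0.0175). The chromosome 1 model of mt-Nd4, Gm28439, was at 217 RPKM in 5xFAD tofacitinib library 1 (nearest 145). Groups of 3, sham Dp16 among them, are too small for this comparison.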

How the results depend on the processing

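Of 808 combinations of a result and an alternative, 736 kept their direction and their side of the threshold, or their count. These include counts of 0 members that stayed at 0 on leaving out each library. The call of mt-Atp8 in tofacitinib against sham in Dp16 changed in 6 of 8 such fits. That in Dp16 against WT in sham changed in 1 of 8. In Dp16 against WT in sham, the 1 member called became 2 with no filter, with DESeq2 and without the 3 libraries low in hippocampal markers (mt-Atp8 and mt-Nd6), 2 with the compared groups alone (mt-Nd2 and mt-Nd5) and 0 without sham Dp16 libraries 1 and 3. Leaving out each library gave 0 to 1. In tofacitinib against sham in Dp16, the 1 member became 0 with the replicate block, with the compared groups alone and without sham Dp16 libraries 1 and 3, and leaving out each library gave 0 to 1. With no filter, 1 member was called in 5xFAD-Dp16 against WT in sham (mt-Nd6), 1 in the response of Dp16 minus WT (mt-Atp8) and 2 for the segment (mt-Atp8 and mt-Nd6). The cause was not tested. Shares of all genes called were taken for the main edgeR fit only, so the counts under these alternatives have none beside them.

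For mt-Atp8 in Dp16 against WT in sham, the log2 fold change was 1.29 with the compared groups alone (edgeR adjusted p = 0.0702), 0.49 without sham Dp16 libraries 1 and 3 (which leaves library 2 alone, its spread assumed to be that of the other groups), and 1.02 to 1.51 on leaving out each library. In tofacitinib against sham in Dp16 it was -1.11 with the replicate block (edgeR adjusted p = 0.554), -1.25 with the compared groups alone (adjusted p = 0.999), -0.49 without libraries 1 and 3, and -1.51 to -1.01 on leaving out each library. With no filter the response of Dp16 minus WT was -1.20 (adjusted p = 0.000108) and the segment effect 0.27 (adjusted p = 0.0489). In Dp16 against WT with tofacitinib, leaving out each library gave -0.16 to 0.12; it turned negative without WT library 4 (-0.04) or Dp16 library 1 (-0.16). The ratio of mt-Atp8 to mt-Atp6 there ran from -0.12 to 0.10 and turned positive without Dp16 library 1 (0.10).

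Same-numbered libraries did not deviate together: in no comparison was every pair's correlation over 0.1, so the numbers were not taken as pairs. No scaling moved the median of all genes by over 0.1. Low counts limit mt-Atp8, mt-Nd4l and the transfer RNA genes. The settings that sum genes with their chromosome 1 copies, leave out sham Dp16 libraries 1 and 3, or take the ratio against the genes outside the copy were chosen after seeing the data.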
